A study of Rattus norvegicus with 6 samples.

Results

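The genes described here were measured by RNA sequencing in rat lateral ventricular choroid plexus. They come from families of ion pumps, cotransporters, exchangers, carbonic anhydrases and water channels that take part in secretion of cerebrospinal fluid (CSF). The families are broader than secretion and also hold scaffolds, kinases and carriers of vesicles and organelles. The genes were taken by gene name from the families *Slc4a*, *Slc8a*, *Slc9a*, *Slc12a*, *Slc13a*, *Slc17a*, *Slc20a*, *Slc24a*, *Slc26a*, *Slc34a*, *Atp1a*, *Atp1b*, *Atp2a*, *Atp2b*, *Atp2c*, *Fxyd*, *Car*, *Aqp* and *Wnk*, with *Stk39* added and the red cell anion exchanger *Slc4a1* left out. Names were taken only from the authors' table of 10653 genes that differed between the ages, and 66 of these genes fitted the families, out of 29479 identifiers counted. The members were therefore selected on the same contrast that is described below, counts at E15 against counts in the adult in these same pools. Their differences between the ages are given as a description, without p-values. Family members outside that table carry no name in it and were not analysed here, so genes just outside the authors' threshold for calling a gene cannot be shown. Among the smallest fitted changes of members was that of *Atp2b1* (log2 fold change, E15 minus adult, -0.58 ± 0.12, SE).

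Sprague-Dawley rats were used at embryonic day 15 (E15) and as adults of 6 weeks, with no treatment at either age. Each RNA sample was a pool of the left and right plexuses of 10 animals, with 3 pools per age. The tissue was taken whole, with stroma, vessels and blood as well as epithelium, so fewer cells of a type and less RNA per cell cannot be told apart.

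Fluid secretion by this epithelium is driven by the sodium pump, which in the choroid plexus sits mainly in the apical membrane, facing the CSF. Sodium, chloride and bicarbonate enter from the blood side through exchangers and cotransporters of the *Slc4* and *Slc9* families and leave towards the ventricle, with carbonic anhydrases supplying bicarbonate and protons from carbon dioxide and water. Water follows, in part through aquaporin channels, while cation-chloride cotransporters carry sodium, potassium and chloride together and kinases of the Wnk family, acting through Stk39 (SPAK), set their activity.

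Reads counted on genes numbered 17875089, 18901272 and 18524987 at E15 against 18511712, 19204440 and 18421472 in the adult, in the order of replicates 1, 2 and 3 that is kept below. The 66 genes together took 0.776%, 0.830% and 0.839% of all counts at E15 against 2.52%, 2.59% and 2.57% in the adult. Normalized counts are raw counts scaled with TMM factors, which are set by the bulk of the genes, to a library of 19265016 counts. At E15 the TMM factors were 1.32, 1.32 and 1.33, against 0.735, 0.773 and 0.761 in the adult. These factors left the median log2 fold change of the 16643 genes tested at 0.14, where positive values are higher at E15 and negative values higher in the adult. With total counts only it was 0.95. The 10 genes of highest mean count held 24.2% to 27.3% of the adult counts compared with 4.86% to 5.90% at E15. Each pool was kept as a sample.

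E15 replicate 1 stood apart from the other E15 pools, with a Spearman's rho across all genes tested of 0.979 and 0.982 with replicates 2 and 3, compared with 0.996 between those. Across the 66 members, which are not independent replicates, the same values were 0.986, 0.987 and 0.995. The adult pools correlated at 0.986 to 0.988 across all genes tested. Adult replicate 2 differed in its neural genes, as described with the members concerned.

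The tissue label was checked on marker genes. The 11 matched choroid plexus epithelium genes (of 15) were all higher in the adult, with summed normalized counts of 502941, 575952 and 585233 at E15 against 5512410, 4675940 and 4590110 in the adult (8.88-fold), *Ttr* the highest at both ages and none at 0. All 6 pools thus carried the markers of choroid plexus. *Ttr* made up most of both sums (mean 445733 of 554709 at E15 and 3995210 of 4926150 in the adult). The fold of the sum is therefore largely that of 1 gene. Fitted folds of the 11 genes ran from 1.68 (*Rbm47*) to 45.1 (*Kl*). Summed counts of the 66 members were 113608, 120761 and 121893 at E15 against 659607, 644908 and 649092 in the adult (5.48-fold).

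Of the 66 members, 65 had more than 10 counts in all and entered the fit; the exception was *Aqp8*. Fitted expression was higher in the adult for 45 and higher at E15 for 20. By a quasi-likelihood test in edgeR, at a Benjamini-Hochberg adjusted threshold of 0.05 over all genes, 43 members were called higher in the adult, compared with 29.3% of all genes tested, and 18 were called higher at E15, compared with 34.7%. Because the authors' test on these pools selected the members, nothing is read from these shares. The 4 that were not called included *Atp1b4*, *Slc12a1* and *Slc26a4*. Without E15 replicate 1 the counts were 43 and 19. Over all genes tested, 5449 were then called higher in the adult and 6218 higher at E15, in place of 4879 and 5773.

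Pools of the ages did not overlap for 42 members that were higher in the adult and 21 that were higher at E15, *Aqp8* among the latter; over all genes tested this held for 32.1% and 38.0%. The ages overlapped for 3 members, *Slc9a2* and *Slc26a4* among them. With total counts only, 35 members were called in the adult (13.8% of all genes tested) and 20 at E15 (58.9%), and 2 members with small changes, such as *Atp2b1*, turned from higher in the adult to higher at E15. The other 63 fitted members were on the same side of 0 with both scalings. The median log2 fold change of the 65 was -1.60, also with genes at 0 counts set at their bounds, against 0.14 for all genes tested. The members were selected on this contrast and all genes tested were not. Nothing is therefore read from this difference or from the shares in this paragraph.

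**Figure D1:**
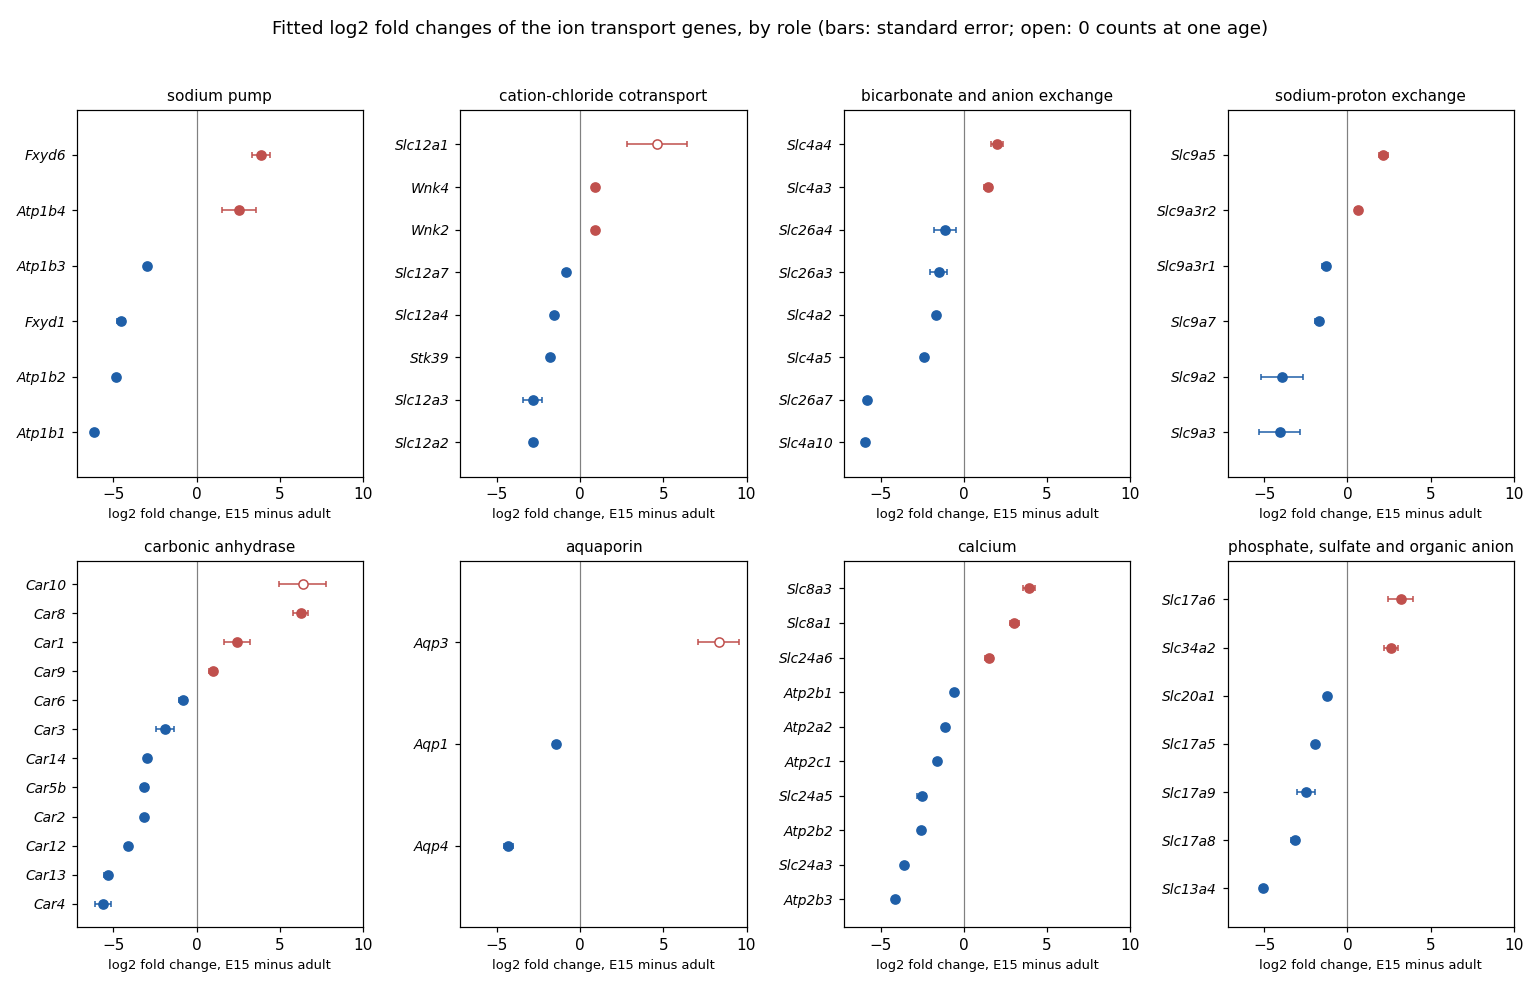
Fitted log2 fold change of 60 members in the fit, E15 minus adult, in 8 panels by role, with bars for the standard error from 3 pools per age. Points left of 0 (blue) were higher in the adult and points right of 0 (red) higher at E15; open points had 0 counts at one age, where the fitted value is no bound. Each panel holds genes on both sides.

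**Figure D2:**
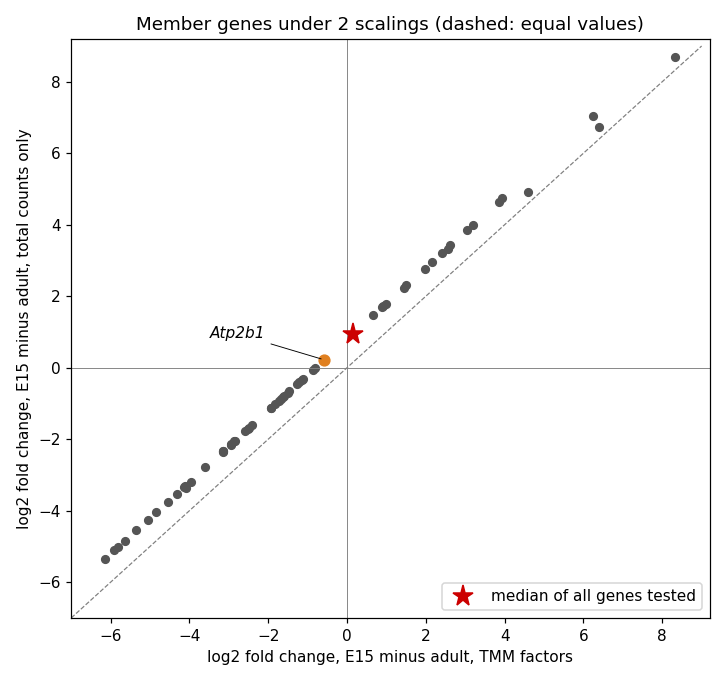
Log2 fold change (E15 minus adult) of the same 60 genes with TMM factors (horizontal axis) and with total counts only (vertical axis); the dashed line marks equal values and the star the median of all genes tested, 0.14 and 0.95. Every member lies above the line, and *Atp2b1* changes side (orange).

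Among the sodium pump genes, the largest difference was in a beta subunit, the part that carries the catalytic alpha subunit to the membrane. Normalized counts of *Atp1b1* were 1184, 1223 and 1119 at E15 against 85215, 81307 and 84438 in the adult. No pool of either age came near the other age, and with a fitted fold of 71.2 (log2 fold change -6.15 ± 0.11, SE) this was the largest adult excess of all members. *Atp1b2* had 668, 685 and 623 at E15 against 20114, 18766 and 17993 in the adult, 28.8-fold more (-4.85 ± 0.11), and *Atp1b3* 1610, 1351 and 1336 at E15 against 11054, 11599 and 10691 in the adult, 7.76-fold more (-2.96 ± 0.11). The 3 subunits thus differed in the size of the change while all were higher in the adult in every pool.

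The make-up of the beta subunit counts moved with these values. *Atp1b1* held 34.1%, 37.4% and 36.3% of them at E15 against 73.2%, 72.8% and 74.6% in the adult. *Atp1b3* held 46.4%, 41.3% and 43.3% at E15 against 9.50%, 10.4% and 9.45% in the adult. The share of *Atp1b2* was closer between the ages, 19.3%, 21.0% and 20.2% at E15 against 17.3%, 16.8% and 15.9% in the adult. Shares of raw counts depend on transcript length as well as abundance, and are compared between ages only. They do not depend on the scaling of the libraries. The totals of all shares given here are over members only, without family genes outside the authors' table.

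Small regulators of the pump went both ways. *Fxyd1* (phospholemman) had normalized counts with a mean of 126 ± 44.7 at E15 against 2962 ± 102 in the adult (mean ± SD of 3 pools), 23.5-fold more (-4.55 ± 0.24). *Fxyd6* had a mean of 54.0 ± 16.0 at E15 against 3.55 ± 2.63 in the adult, 14.5-fold more at E15 (log2 fold change 3.86 ± 0.55; 4.58 without adult replicate 2). The pools of the ages did not overlap for either gene.

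*Atp1b4*, which in placental mammals is a protein of the muscle nuclear envelope and not a pump subunit, had 33 raw counts over the E15 pools against 3 over the adult pools. The ratio of E15 to adult, with library size allowed for, was 6.39 (exact 95% interval 2.004 to 32.6, counting error only). All adult counts came from replicate 1, without which the adult pools had 0 counts and the fitted log2 fold change (2.56 ± 1.03 with all pools) gives no bound.

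**Figure D3:**
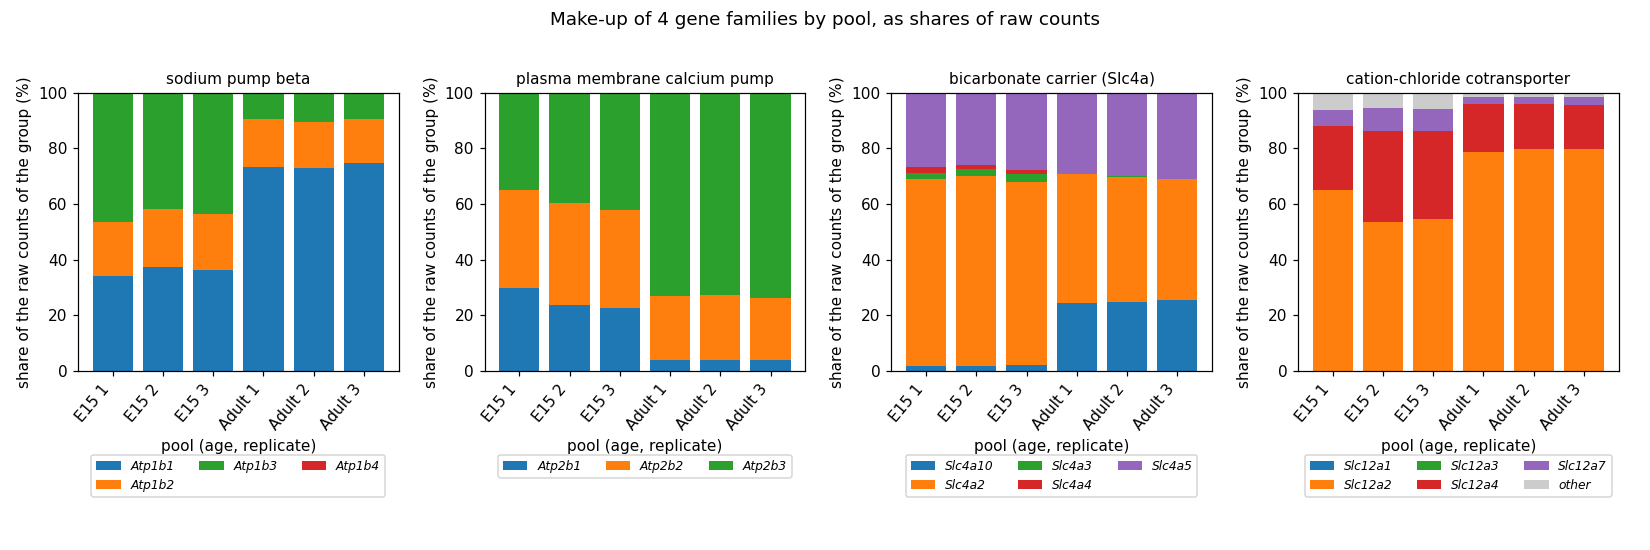
Shares of raw counts (%) among the members of 4 families in each of the 6 pools, with grey for members not drawn singly. The families are sodium pump beta subunits, plasma membrane calcium pumps, *Slc4a* bicarbonate carriers and *Slc12a* cotransporters. Family genes outside the authors' table are not in the totals. *Atp1b1*, *Atp2b3*, *Slc4a10* and *Slc12a2* took larger shares in every adult pool than in any E15 pool; shares depend on transcript length and compare ages, not genes.

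The cation-chloride cotransporter *Slc12a2* (NKCC1) moves sodium, potassium and chloride together and in this epithelium lies in the apical membrane. Its normalized counts were 10284, 7999 and 8151 at E15 against 64519, 64863 and 63372 in the adult. Adult pools differed little among themselves and all lay far above the E15 pools (7.29-fold, log2 fold change -2.87 ± 0.12). The potassium-chloride cotransporters were also higher in the adult but by less. *Slc12a4* (KCC1) had 3614, 4940 and 4719 at E15 against 14252, 13206 and 12659 in the adult (3.02-fold), and *Slc12a7* (KCC4) 894, 1231 and 1208 at E15 against 2086, 1870 and 2122 in the adult (1.82-fold). With total counts only the difference of *Slc12a7* was close to 0 (log2 fold change -0.06). *Slc12a2* held 65.1%, 53.4% and 54.5% of the counts of the 6 *Slc12a* members at E15 against 78.5%, 79.8% and 79.7% in the adult, with E15 replicate 1 above the other E15 pools.

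The cotransporters best known from the kidney had few counts. *Slc12a3*, the thiazide-sensitive sodium-chloride cotransporter, had 10, 8 and 2 raw counts at E15 against 31, 35 and 20 in the adult (7.22-fold higher in the adult, -2.85 ± 0.58). *Slc12a1* (NKCC2) had 11 raw counts over the E15 pools and 0 in all adult pools. Against a floor of 3 counts over the adult pools it was at least 2.13-fold higher at E15. That value takes the E15 counts as exact, and the gene was not called. Neither gene reached 100 counts over the pools of an age.

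Kinases upstream of the cotransporters did not move together. *Stk39*, which phosphorylates NKCC1, had normalized counts with a mean of 11739 ± 1399 at E15 against 41506 ± 661 in the adult, 3.54-fold more (-1.82 ± 0.11). *Wnk2* had a mean of 2752 ± 803 at E15 against 1495 ± 47.3 in the adult, 1.84-fold more at E15 (0.88 ± 0.20), with E15 replicate 1 the closest to the adult pools. *Wnk4* had 1313, 1729 and 1408 at E15 against 807, 856 and 689 in the adult, 1.89-fold more at E15 (0.92 ± 0.14). Thus Stk39 transcript was higher in the adult and the transcripts of both Wnk kinases, which activate it, were higher at E15, with no overlap of pools and with either scaling.

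Among bicarbonate carriers, *Slc4a10*, a sodium-dependent carrier of the basolateral membrane that brings bicarbonate into the epithelium, had the largest difference. Its normalized counts were 326, 464 and 505 at E15 against 25267, 26185 and 26762 in the adult (60.4-fold, log2 fold change -5.92 ± 0.18). E15 replicate 1 was the lowest pool, and every E15 pool lay far below every adult pool. *Slc4a5*, an electrogenic sodium bicarbonate cotransporter of the apical membrane, had 4760, 6237 and 6667 at E15 against 30185, 31766 and 32549 in the adult (5.35-fold, -2.42 ± 0.14). *Slc4a2*, the basolateral chloride-bicarbonate exchanger AE2, had 11973, 16323 and 15724 at E15 against 47892, 47710 and 45747 in the adult (3.21-fold, -1.68 ± 0.13). All 3 were lowest in E15 replicate 1 and similar across the adult pools.

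The remaining *Slc4a* members were higher at E15. *Slc4a4* (NBCe1) had 373, 320 and 315 at E15 against 42.5, 142 and 71.4 in the adult (3.92-fold, log2 fold change 1.97 ± 0.36). Its adult values were uneven, with replicate 2 the highest. *Slc4a3*, the exchanger AE3 of excitable tissues, had 413, 647 and 660 at E15 against 210, 264 and 162 in the adult (2.70-fold, 1.44 ± 0.23). The share of *Slc4a10* in the counts of the 5 *Slc4a* members was 1.83%, 1.94% and 2.12% at E15 against 24.4%, 24.7% and 25.4% in the adult, whereas that of *Slc4a2* was 67.1%, 68.0% and 65.9% at E15 against 46.2%, 45.0% and 43.4% in the adult and that of *Slc4a5* 26.7%, 25.997% and 27.9% at E15 against 29.1%, 29.9% and 30.9% in the adult. The share of *Slc4a2* was thus lower and that of *Slc4a10* higher in the adult, although normalized counts of both were higher in the adult. *Slc4a5* held a similar part at both ages.

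Of the *Slc26a* anion exchangers, *Slc26a7*, which exchanges chloride for bicarbonate, had a mean of 19.5 ± 4.68 at E15 against 1105 ± 121 in the adult (56.3-fold, -5.81 ± 0.20). The other members had few counts. *Slc26a3* had 56 raw counts at E15 against 93 in the adult, over 3 pools each (log2 fold change -1.50 ± 0.51; -2.11 without E15 replicate 1), and *Slc26a4* (pendrin) 25 against 32 (-1.11 ± 0.66; -1.74 without E15 replicate 1). The pools of *Slc26a4* overlapped between the ages.

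The sodium-proton exchange role, made up of the exchangers and their scaffold proteins, had the smallest difference of any role in summed normalized counts, 2677, 4059 and 3702 at E15 against 4415, 4641 and 4436 in the adult, 1.29-fold more in the adult. E15 replicate 1 was the lowest pool, and with total counts only the sum was 1.35-fold higher at E15. *Slc9a5*, an exchanger found mainly in neurons, was higher at E15, with 221, 432 and 270 at E15 against 66.5, 72.7 and 68.7 in the adult (4.43-fold, 2.15 ± 0.28). *Slc9a7*, an exchanger of the trans-Golgi network, had 60.6, 44.7 and 49.4 at E15 against 156, 152 and 205 in the adult (3.31-fold, -1.73 ± 0.25). The 2 exchangers thus moved in opposite directions, with no overlap of pools and with both scalings.

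Of the scaffold proteins that anchor such exchangers, *Slc9a3r1* (NHERF1) had 478, 1007 and 929 at E15 against 1886, 2071 and 1886 in the adult, higher in the adult (2.42-fold), with E15 replicate 1 lowest. *Slc9a3r2* (NHERF2) had a mean of 888 ± 191 at E15 against 561 ± 86.7 in the adult, 1.58-fold higher at E15. The 2 scaffolds thus differed in direction.

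The exchangers *Slc9a2* and *Slc9a3* of gut and kidney were near the limit of detection. *Slc9a3* had 1 raw count over the E15 pools against 14 over the adult pools, and the ratio of adult to E15 was 24.1 (exact 95% interval 3.67 to 1019); the single E15 count was in replicate 2, so the fitted log2 fold change (-4.08 ± 1.24) gives no bound without that pool. *Slc9a2* had 4 against 41 raw counts (log2 fold change -3.95 ± 1.27). Its ages overlapped, and its adult excess rested on replicate 2, without which too few counts were left for the fit.

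**Figure D4:**
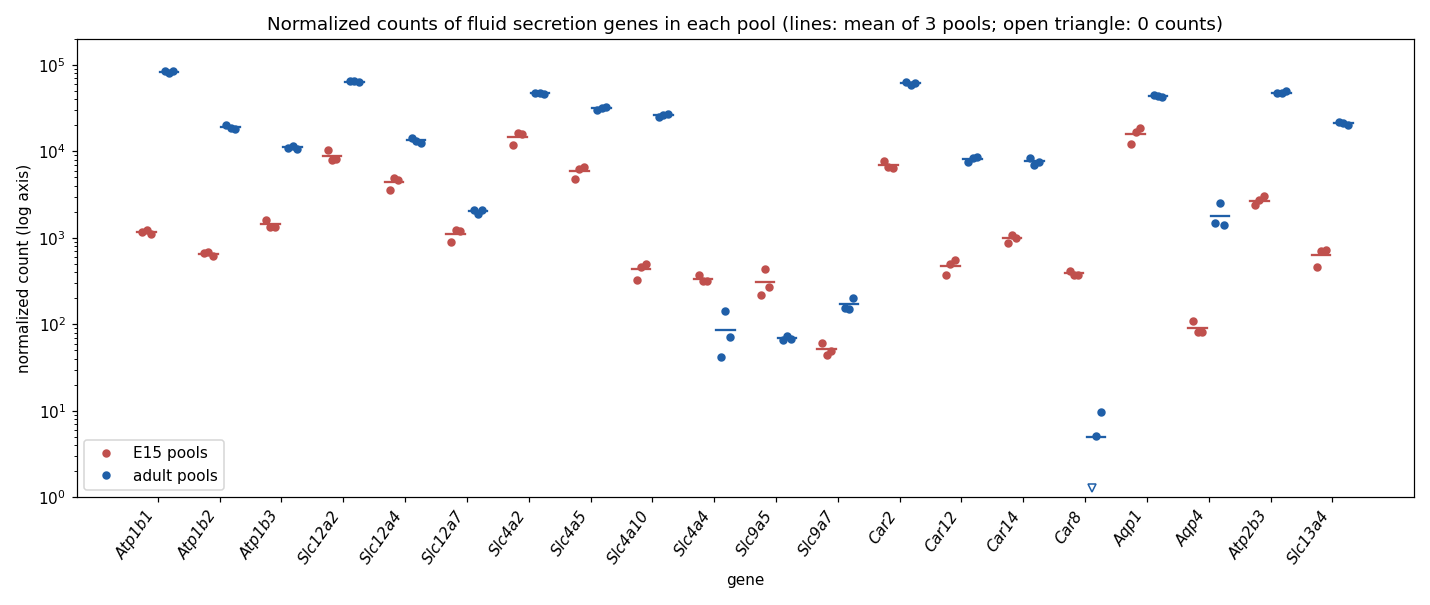
Normalized counts (log axis) of 20 member genes in the 3 E15 pools (red) and the 3 adult pools (blue), with lines at the mean of 3 pools and an open triangle for 0 counts. Ages do not overlap for any gene shown; *Slc4a4*, *Slc9a5* and *Car8* are higher at E15 and the rest higher in the adult, and the adult pools of *Slc4a4* and *Aqp4* are spread by replicate 2. Heights compare ages within a gene, since counts of different genes depend on transcript length.

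Of the 12 carbonic anhydrase genes, 8 were higher in the adult. *Car2*, the cytosolic enzyme of most secretory epithelia, had 7763, 6543 and 6384 normalized counts at E15 against 63838, 59275 and 61087 in the adult (8.90-fold, -3.15 ± 0.11). *Car12*, a transmembrane enzyme with its active site outside the cell, had 370, 494 and 563 at E15 against 7625, 8464 and 8724 in the adult (17.4-fold, -4.12 ± 0.17). *Car14*, of the same kind, had 876, 1080 and 1007 at E15 against 8454, 7033 and 7484 in the adult (7.75-fold, -2.95 ± 0.13). No pool of these 3 genes crossed to the other age.

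Other enzymes went the same way. *Car13*, another cytosolic form, had 43.4, 24.6 and 28.2 at E15 against 1134, 1328 and 1470 in the adult (40.8-fold, -5.35 ± 0.22). *Car4*, held at the cell surface by a lipid anchor, had 1, 2 and 2 raw counts at E15 against 49, 57 and 51 in the adult (49.5-fold, -5.63 ± 0.45). All E15 pools of both genes lay far below all adult pools. Mitochondrial *Car5b* (-3.14), cytosolic *Car3* (-1.92; -2.72 without E15 replicate 1) and secreted *Car6* (-0.81; -0.01 with total counts only) were also higher in the adult on the log2 scale.

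The 4 higher at E15 included proteins that lack the enzyme's activity. *Car8*, a catalytically inactive relative, had 416, 373 and 376 normalized counts at E15 against 0, 5.19 and 9.61 in the adult (76.1-fold, 6.25 ± 0.45; 7.08 without adult replicate 3). *Car10*, also inactive, had 39 raw counts over the E15 pools and 0 in the adult, at least 7.55-fold higher at E15. Both were thus close to or at 0 in the adult. Of the active enzymes, *Car9*, a transmembrane enzyme, had a mean of 199 ± 36.1 at E15 against 101 ± 18.2 in the adult (1.97-fold higher at E15). *Car1*, abundant in red cells, had a mean of 22.3 ± 8.93 at E15 against 4.09 ± 3.67 in the adult (5.33-fold; log2 fold change 2.41 ± 0.77, 1.82 without adult replicate 3).

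Red cell genes of the same pools are given beside *Car1*. Of 15 erythroid genes listed, 8 were matched, and all 8 were higher at E15; their summed normalized counts were 257561, 368248 and 338730 at E15 against 8371, 11827 and 9560 in the adult, with *Hbe1* the highest at E15 and *Hbb* in the adult. None of the 8 was at 0 at either age. Their part in the difference of *Car1* was not tested.

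Water channels were represented by 4 members. *Aqp1*, the channel of the apical membrane of this epithelium, had 12318, 16644 and 18565 normalized counts at E15 against 44962, 43767 and 42556 in the adult (2.76-fold, -1.47 ± 0.15). Replicate 1 was the lowest of the E15 pools, and the difference between the ages was smaller than those of *Slc12a2*, *Car2* and *Atp1b1* on the log2 scale. *Aqp4*, the channel of astrocyte end-feet and ependyma, had 109, 80.9 and 80.8 at E15 against 1470, 2542 and 1395 in the adult (19.99-fold, -4.32 ± 0.27), with adult replicate 2 above the other adult pools.

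The other channels were seen only at E15. *Aqp3*, which also passes glycerol, had 70, 60 and 22 raw counts at E15 and 0 in the adult, at least 29.4-fold more. *Aqp8* had 1, 6 and 3 and 0, at least 1.94-fold more, and was too low for the fit. These bounds, like those above, take 3 counts over the adult pools as the floor. They take the E15 counts as exact, so with few E15 counts they can be too high.

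The 3 plasma membrane calcium pumps among the members changed in their shares of counts. *Atp2b3* had 2379, 2724 and 3021 normalized counts at E15 against 47064, 46766 and 50100 in the adult (17.7-fold, -4.15 ± 0.12), and *Atp2b2* a mean of 2483 ± 70.3 at E15 against 14863 ± 117 in the adult (5.98-fold, -2.58 ± 0.09). Against these, the widely expressed *Atp2b1* had a mean of 1755 ± 240 at E15 against 2629 ± 78.5 in the adult, only 1.498-fold more in the adult (-0.58 ± 0.12), and with total counts only its sign was the opposite (0.22). *Atp2b3* made up 34.9%, 39.7% and 42.1% of the counts of the 3 pumps at E15 against 73.1%, 72.9% and 73.9% in the adult, and *Atp2b1* 29.8%, 23.5% and 22.6% at E15 against 3.999%, 4.04% and 4.01% in the adult. The pumps of internal stores were higher in the adult, by 2.20-fold for *Atp2a2* of the endoplasmic reticulum (-1.14 ± 0.10) and 3.09-fold for *Atp2c1* of the Golgi (-1.63 ± 0.17).

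Sodium-calcium exchangers went both ways. Of those that do not carry potassium, *Slc8a1* had a mean of 437 ± 55.7 at E15 against 53.2 ± 21.8 in the adult (8.21-fold higher at E15, 3.04 ± 0.27) and *Slc8a3* 205, 243 and 202 at E15 against 7.08, 22.1 and 12.4 in the adult (15.3-fold, 3.94 ± 0.35). The potassium-dependent *Slc24a3* was higher in the adult, with 116, 107 and 111 at E15 against 1413, 1465 and 1170 in the adult (12.1-fold, -3.60 ± 0.14), as was *Slc24a5*, an exchanger of intracellular membranes, at lower counts (5.75-fold, -2.52 ± 0.28). *Slc24a6*, the mitochondrial sodium-calcium exchanger, was 2.83-fold higher at E15. These directions held with both scalings.

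Carriers of sulfate, phosphate and organic anions numbered 7. The sodium-sulfate cotransporter *Slc13a4* had 463, 705 and 723 at E15 against 21628, 21407 and 20060 in the adult (33.3-fold, -5.06 ± 0.19). Its pools were far apart between the ages and close within the adult. The phosphate carrier *Slc20a1* had a mean of 1707 ± 197 at E15 against 3979 ± 242 in the adult (2.33-fold, -1.22 ± 0.12), while *Slc34a2*, another sodium-phosphate cotransporter, had a mean of 84.4 ± 12.1 at E15 against 13.7 ± 7.21 in the adult, 6.14-fold more at E15 (2.62 ± 0.40). The phosphate carriers thus went in opposite directions.

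In the *Slc17a* family, the vesicular glutamate transporter *Slc17a8* (VGLUT3) had a mean of 193 ± 43.3 at E15 against 1695 ± 478 in the adult (8.80-fold, -3.14 ± 0.25), with adult replicate 2 the lowest adult pool. *Slc17a6* (VGLUT2), of other neurons, had 496, 149 and 326 at E15 against 18.4, 81.8 and 4.12 in the adult (9.15-fold higher at E15, 3.19 ± 0.74; 4.81 without adult replicate 2). Its pools varied more within each age than those of most members. The lysosomal sialic acid carrier *Slc17a5* (3.80-fold) and the vesicular nucleotide carrier *Slc17a9* (5.63-fold) were higher in the adult.

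Most members varied little between pools of an age. Each pool was set against the mean of the other pools of its age, with 0.5 added to the counts, for members with a mean raw count above 10 at that age (58 at E15 and 56 in the adult). More than 2-fold higher than the others were 3, 0 and 0 members in the E15 replicates and 0, 5 and 1 in the adult replicates; more than 2-fold lower were 1, 3 and 2 at E15 against 6, 0 and 3 in the adult. The summed counts of all members lay within a log2 ratio of -0.09 to 0.06 of the other pools.

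The 5 members high in adult replicate 2 included *Slc9a2* (log2 ratio 3.28), *Slc17a6* (2.81), *Slc4a4* (1.31) and *Slc8a3* (1.14). Summed neuron markers were also highest in that pool among the adult pools. The 4 matched genes of the adult neuron list (of 8) summed to 522, 1278 and 382 normalized counts in the adult pools against 353, 152 and 267 at E15, with *Syp* the highest at both ages and none at 0. The 11 matched genes of developing neurons (of 12) summed to 146, 700 and 184 in the adult against 5356, 1800 and 4126 at E15, with *Tubb3* the highest at both ages and *Neurod6* and *Nhlh1* at 0 in the adult. Of these 11 genes, 6 were more than 2-fold higher in adult replicate 2 than in the other adult pools, *Gap43*, *Tubb3* and *Stmn2* making up most of its sum, while *Neurod1*, *Neurod2* and *Neurog2* were at 0 there and had counts in another adult pool. Both sums were thus highest in adult replicate 2 among the adult pools and lowest in E15 replicate 2 among the E15 pools, as *Slc17a6* was.

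Glial lists were uneven as well. The 5 matched astrocyte and ependyma genes (of 8) summed to 2009, 5123 and 1622 in the adult against 11262, 9650 and 8726 at E15, with *Gja1* the highest at both ages. The sum hides a split by gene: *Gja1* and *Slc1a3* were higher at E15, whereas *Gfap*, *S100b* and *Tmem212* (at 0 at E15) were higher in the adult, as was *Aqp4*. Adult replicate 2, where *Aqp4* was also highest, stood above the other adult pools. The 7 matched oligodendrocyte genes (of 8) summed to 9152, 4838 and 3207 in the adult against 1813, 1952 and 1870 at E15, highest in adult replicate 1, with *Cldn11* the highest at E15 and no gene at 0. Of these 7, 5 were higher in the adult, while *Cldn11* and *Mog* were higher at E15. The part of neural or glial cells in the values of *Slc17a6*, *Slc9a2*, *Slc4a4*, *Slc8a3* and *Aqp4* was not tested.

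**Figure D5:**
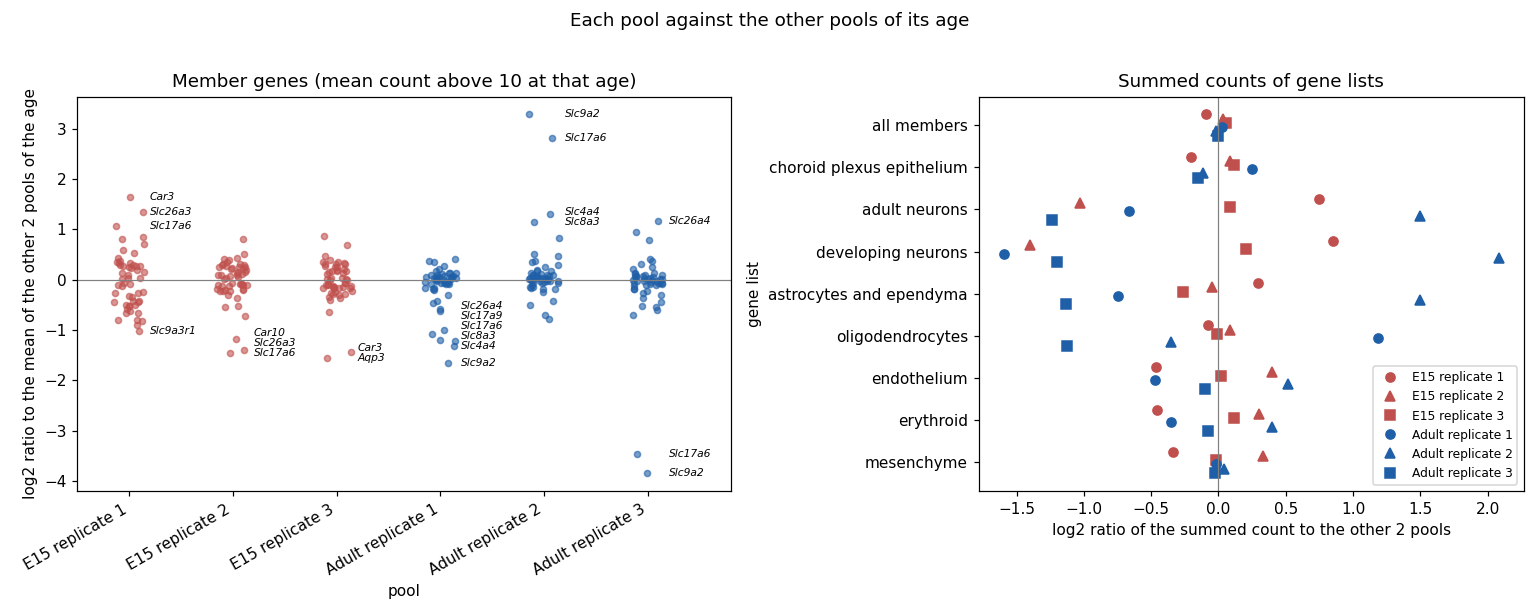
Left, log2 ratio of each member's normalized count in a pool to the mean of the other pools of its age (members with a mean raw count above 10 at that age), with names for ratios beyond 2-fold; right, the same ratio for the summed counts of gene lists. All members together stay near 0 in each pool, whereas the neuron lists and the astrocyte and ependyma list reach log2 ratios of 1.498, 2.08 and 1.496 in adult replicate 2.

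Other cell type lists moved with age as well. Higher at E15 were the 9 matched endothelial genes of 12 (9780, 14596 and 12362 at E15 against 1209, 1905 and 1449 in the adult; highest *Cdh5* at E15 and *Vwf* in the adult), and in sum the 10 mesenchymal genes of 10 (46576, 63591 and 54336 at E15 against 17253, 17763 and 17221 in the adult; highest *Col3a1* at E15 and *Pdgfra* in the adult), of which 8 were higher at E15. The 2 matched proliferation genes of 6 had 5256, 4714 and 5146 at E15 against 52.4, 40.3 and 59.1 in the adult, *Cdk1* the highest at E15 and *Ccnb1* in the adult. No gene of these 3 lists was at 0. Names were taken only from genes the authors called, so these lists too were selected on the contrast, and the part of cell make-up in the members' differences was not tested.

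The start regions of the members that differed most are printed to show the sequence itself beside the counts, as a description only. Promoters from RefSeq (build GRCr8) were matched for 48 of the 66 members, 46 by symbol and 2 by synonym. The 18 without a match included *Atp1b1*, *Atp2b3*, *Car1*, *Car2*, *Car3*, *Car6*, *Car8*, *Car13*, *Slc17a9*, *Slc20a1*, *Slc24a5*, *Slc24a6* and *Slc26a7*. The 250 bases before the start are given 5′ to 3′ on the gene's strand for the 3 matched members with the largest fold in each direction and a mean normalized count above 100. Capitals mark 4 motifs on either strand: the GC box GGGCGG, the CCAAT box CCAAT, the TATA box TATAAA and the OTX-type homeobox motif TAATCC. Higher in the adult were *Slc4a10* (chr3:67073653-67073902, plus strand), *Slc13a4* (chr4:64955987-64956236, minus strand) and *Atp1b2* (chr10:54823709-54823958, minus strand), and higher at E15 *Slc8a3* (chr6:106738506-106738755, minus strand), *Slc17a6* (chr1:110348197-110348446, plus strand) and *Slc8a1* (chr6:19023309-19023558, plus strand).
Slc4a10: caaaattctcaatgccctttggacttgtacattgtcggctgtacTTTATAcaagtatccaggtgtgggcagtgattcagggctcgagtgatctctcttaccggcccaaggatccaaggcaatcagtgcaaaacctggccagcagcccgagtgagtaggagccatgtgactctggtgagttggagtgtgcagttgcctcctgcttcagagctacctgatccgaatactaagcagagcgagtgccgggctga
Slc13a4: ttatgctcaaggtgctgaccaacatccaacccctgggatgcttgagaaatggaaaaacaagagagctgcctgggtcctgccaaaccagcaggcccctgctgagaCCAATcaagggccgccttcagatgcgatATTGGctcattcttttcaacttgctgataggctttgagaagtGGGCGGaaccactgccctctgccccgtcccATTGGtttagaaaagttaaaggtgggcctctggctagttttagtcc
Atp1b2: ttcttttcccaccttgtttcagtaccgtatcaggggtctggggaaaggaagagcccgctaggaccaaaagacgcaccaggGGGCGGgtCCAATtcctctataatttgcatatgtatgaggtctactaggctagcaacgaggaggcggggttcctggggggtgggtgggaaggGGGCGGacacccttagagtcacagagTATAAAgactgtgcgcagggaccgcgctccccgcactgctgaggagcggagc
Slc8a3: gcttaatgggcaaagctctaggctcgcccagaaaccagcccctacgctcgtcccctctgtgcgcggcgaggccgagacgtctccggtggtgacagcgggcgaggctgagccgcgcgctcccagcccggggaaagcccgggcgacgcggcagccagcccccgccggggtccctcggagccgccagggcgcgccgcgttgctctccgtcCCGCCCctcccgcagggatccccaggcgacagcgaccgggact
Slc17a6: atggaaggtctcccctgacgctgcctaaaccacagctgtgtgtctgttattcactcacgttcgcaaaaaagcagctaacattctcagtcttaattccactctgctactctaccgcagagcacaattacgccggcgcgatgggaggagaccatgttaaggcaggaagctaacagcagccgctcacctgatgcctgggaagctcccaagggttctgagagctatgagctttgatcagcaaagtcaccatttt
Slc8a1: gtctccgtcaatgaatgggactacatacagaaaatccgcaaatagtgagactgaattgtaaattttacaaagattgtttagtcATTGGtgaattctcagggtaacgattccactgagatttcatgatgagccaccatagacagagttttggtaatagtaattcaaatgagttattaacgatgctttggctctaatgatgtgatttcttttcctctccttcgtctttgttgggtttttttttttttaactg

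The regions before these genes had little in common in these letters. That of *Slc4a10* held a TATA box match, that of *Slc13a4* 1 GC box and 3 CCAAT matches, and that of *Atp1b2* 2 GC boxes, 1 CCAAT and 1 TATA box match. *Slc8a3* had 1 GC box, *Slc8a1* 1 CCAAT match and *Slc17a6* no match. Over the 48 matched members the GC box was found in 27, compared with 30.5% of the 33469 promoters of the same length in the table, the CCAAT box in 11 (34.02%), the TATA box in 5 (12.9%) and the OTX-type motif in 4 (6.34%). By direction, the GC box was found before 20 of 31 members higher in the adult and 7 of 17 higher at E15. The median share of G and C was 65.2% for the members of either direction and 51.2% for all promoters. A match is not a binding site, and none was tested.

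Genes that work with the transporters were taken from a list of 30 channels, kinases and scaffolds, of which 19 are named in the authors' table and so were selected in the same way. Of the 19, 11 were called higher in the adult and 8 at E15 (the same test; 29.3% and 34.7% of all genes tested), and no pools overlapped between the ages, which over all genes tested held for 32.1% and 38.0%. Their median log2 fold change was -0.66.

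Channels went both ways, and those higher in the adult are given first. The potassium channel *Kcnj13* had normalized counts with a mean of 3643 ± 436 at E15 against 41437 ± 2822 in the adult (11.4-fold, -3.51 ± 0.13), and *Kcna1* a mean of 3.48 ± 2.90 at E15 against 558 ± 83.5 in the adult (157-fold, -7.29 ± 0.38; -8.08 without E15 replicate 1). The cation channel *Trpv4* had a mean of 457 ± 130 at E15 against 4110 ± 195 in the adult (8.98-fold, -3.17 ± 0.20). No E15 pool of these channels reached any adult pool. *Cldn2*, which forms paracellular pores for cations and water, had a mean of 4752 ± 407 at E15 against 89236 ± 3130 in the adult (18.8-fold, -4.23 ± 0.11), and the chloride channel protein *Clic6* a mean of 26381 ± 3416 at E15 against 76054 ± 2897 in the adult (2.88-fold, -1.53 ± 0.12).

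Regulators followed with different sizes and directions. The kinase *Sgk1* had a mean of 747 ± 173 at E15 against 8734 ± 1311 in the adult (11.7-fold, -3.55 ± 0.19), and *Cab39*, a partner of Stk39, was 2.54-fold higher in the adult (-1.35 ± 0.15). The sodium pump interactors *Nkain1* (406 ± 57.6 at E15 against 6.87 ± 2.64 in the adult) and *Nkain4* (264 ± 12.3 against 7.64 ± 4.53) were 58.5-fold and 33.8-fold higher at E15. *Nkain3*, with 125 raw counts over the E15 pools and 1 over the adult pools, had a ratio of E15 to adult of 72.6 (exact 95% interval 12.8 to 2890), and its single adult count was in replicate 3. All 3 *Nkain* genes were thus higher at E15, opposite to *Atp1b1*, *Atp1b2* and *Atp1b3*.

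Smaller excesses at E15 were found for the ubiquitin ligase *Nedd4l* (0.79 ± 0.13), the chloride channels *Clcn2* (0.77 ± 0.21) and *Lrrc8a* (0.82 ± 0.18) and the membrane linker *Msn* (1.11 ± 0.10), and a larger one for *Kcna3* (5.07 ± 0.76). The 4 adult counts of *Kcna3* were all in replicate 3, without which the adult pools had 0 counts and the fitted value (9.09) is no bound. *Best3* (-5.89 ± 0.44; -6.62 without E15 replicate 2) was far higher in the adult. For *Cul3* (-0.72), *Ppp1cb* (-0.66) and *Sptbn1* (-0.56) the small adult excess turned to an E15 excess of 0.09, 0.14 and 0.24 with total counts only.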

How the data were processed

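RNA of lateral ventricular choroid plexus was compared between 3 pools at E15 and 3 in the adult, with samples grouped and numbered by their labels. The authors deposited counts, whole numbers for each Ensembl gene, that they obtained by trimming reads, mapping with Bowtie 0.12.7 to the rat genome of Ensembl release 61, keeping uniquely mapped reads and counting with HTSeq 0.4.7p4, without normalization. The authors' table of called genes, from edgeR 2.4.0, holds log2 values (a fold change and an average abundance). The p-value and adjusted p-value columns deposited there come from the authors' exact test with a common dispersion. Only names and descriptions were read from that table; 10093 of its 10653 genes have a name.

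Genes whose counts summed to more than 10 were fitted by quasi-likelihood (estimateDisp, glmQLFit, glmQLFTest) in edgeR 4.0.16 under R 4.3.3, using TMM factors with age as the only term. The adjusted p threshold was 0.05, by the Benjamini-Hochberg method over 16643 genes, and the biological coefficient of variation was 18.2%. With 3 pools per age the least p an exact permutation test could reach is 0.10, and none was run. Standard errors are the fitted log2 fold change divided by the square root of F. Where an age had 0 counts, a floor of 3 counts over its 3 pools gave a lower bound. That bound takes the counts of the other age as exact and leaves out their counting error. With 1 to 3 counts, the ratio has an exact 95% interval from the binomial distribution. The interval covers counting error only, and neither covers variation between pools. DESeq2 1.42.0 and limma 3.58.1 served as alternatives; scripts for tables ran under Python 3.11.15 (pandas 2.3.3, numpy 2.4.6, scipy 1.17.1) and figures were drawn with matplotlib 3.10.9.

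The members and the gene lists were chosen with earlier results of these data known. Pool values were given for the genes of the study's scheme of secretion and, in each role group, for the gene of highest mean count and the largest fold in each direction with a mean count above 100; other members are named with their fold, and some also with mean counts or totals. A few genes are counted in the totals and lists but not reported singly here. No symbols for identifiers outside the authors' table were used here, so same-family genes outside the authors' table, and whole families by reference names, were not analysed here. Transcript lengths were not used here, so levels of different genes were not compared.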

Additional observations from a re-analysis of the deposited data

How the results depend on the processing

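The numbers of members and of other ion transport genes called at each age stayed within 1.5 times those reported under every alternative run: RLE, upper quartile or total-count scaling, total counts without the 10 highest genes, other filters, DESeq2, limma-voom, an exact test with a common dispersion, and each library left out. Members called in the adult numbered 35 (total counts only) to 45 (exact test), and at E15 14 (mean count above 100) to 20. Without 1 library they ranged from 40 to 43 and from 17 to 19. Of all genes, the exact test called 4911 higher in the adult and 6158 higher at E15. With a mean count above 100 these numbers were 4205 and 4534. Without 1 library they ranged from 4327 to 5449 and from 5009 to 6218. Over all genes tested, total counts only called 9799 higher at E15 against 2292 higher in the adult, in place of 5773 and 4879, and total counts without the 10 highest genes called 3196 higher in the adult. With total counts only the log2 fold changes of *Atp2b1* (0.22), *Cul3* (0.0865), *Ppp1cb* (0.14) and *Sptbn1* (0.24) changed sign, as that scaling moves the median of all genes by 0.80. No member changed sign except with total counts only.

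With the replicate number as a replicate block, 41 members were called in the adult and 17 at E15, and over all genes tested, higher in the adult, 4608 and, higher at E15, 5320. Deviations of pools with the same number correlated at -0.01, -0.01 and -0.04 across genes, so the numbers are not taken to pair the pools, and pools did not all correlate best with their own number.

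Leaving out a library moved the fitted fold of 10 members by over 1.5 times; values are given with the genes named in the report. For *Atp1b4* and *Slc9a3* the pool left out held every count of its age, so the fitted value without it is no bound. The alternatives for same-family genes outside the authors' table and for whole families, and levels per kilobase with coding lengths, were not run, since no symbols for those genes and no lengths were used here. Depth limits what can be said of *Aqp8*, *Slc12a1*, *Slc9a3*, *Car10* and *Atp1b4*, which had few counts at either age.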

Other observations

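The authors' table also holds 6 genes of these families under protein entry names or older symbols, which the rule for members did not reach. They were found by their descriptions after the values of the members had been seen, and were called by the authors on the same pools, so their values are a description. The potassium-dependent sodium-calcium exchanger 4 (entry D3ZCC3_RAT) had 415, 434 and 480 normalized counts at E15 against 5624, 5410 and 5571 in the adult, 12.5-fold more in the adult (log2 fold change -3.64 ± 0.11, SE), the same direction as *Slc24a3*. *Mip*, the water channel of the lens fiber, had 782, 748 and 713 at E15 against 32.6, 19.5 and 22.0 in the adult, 30.3-fold more at E15 (4.92 ± 0.20). It was a water channel gene detected in all 6 pools, outside the *Aqp* names.

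The kinase WNK3 (D4A7Z8_RAT) had 409, 364 and 382 at E15 against 135, 175 and 192 in the adult, 2.30-fold more at E15, as *Wnk2* and *Wnk4* were. The pump's gamma subunit (ATNG_RAT) had 16, 26 and 18 raw counts at E15 against 1, 3 and 1 in the adult, and solute carrier 26 member 10 (D3ZXL0_RAT) 21, 53 and 31 at E15 against 0, 3 and 3 in the adult. Both were higher at E15 in every pool. The sodium-calcium exchanger 2 (NAC2_RAT), with 17.2, 33.9 and 41.6 normalized counts at E15 against 21.2, 9.09 and 6.87 in the adult, overlapped between the ages and was not called in the fit used here.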
